A study of Mus musculus with 4 samples.

Results

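Sertoli cells are the somatic nurse cells of the seminiferous tubule, and 10 genes known for their work in these cells were followed here in RNA of mouse spermatogonial stem cells (SSCs). The genes were Sox9, Wt1, Gata4, Rhox5, Amh, Inha, Dhh, Kitl, Clu and Cldn11, each taken as the single entry of that name among 37653 genes of the authors' FPKM table (fragments scaled for transcript length and sequencing depth) and joined to the count table by gene identifier. All 10 were found in both tables. The cells came from testes of postnatal day 10 mice of the strain given as C57/BL6*DBA2. They were kept in culture and collected on a cell sorter, and the labels do not say which marker was gated. The design compared 2 libraries of wild-type (WT) SSCs with 2 of SSCs labelled Tex11PM/Y, after the X-linked meiotic gene Tex11; the labels do not define PM and give no other allele or agent.

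Sertoli cells surround the germ cells, set up the blood-testis barrier and send out the signals that maintain SSCs or move them towards differentiation. SOX9, together with WT1 and GATA4, sets and holds Sertoli cell identity. AMH and inhibin are hormones of the same cells, DHH signals to Leydig and peritubular cells, and KITL acts on the KIT receptor of spermatogonia. Several of these genes are also used outside Sertoli cells, which bears on how their transcripts can be read in a culture: Clu is widely expressed, Kitl is made by many stromal cells, Cldn11 also by myelinating cells, and Rhox5 is also transcribed in embryonic and placental cells. In bulk RNA, fewer cells of a type and less RNA per cell cannot be told apart.

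Total counts ran from 19047148 to 19804951 per library. WT libraries are called replicates 1 and 2, and the Tex11PM/Y libraries A and B, since both of their columns carry the same name. Whether the libraries of 1 genotype stem from separate animals or separate cultures is not given in the labels, so p-values measure only the spread between these samples. Tex11 held 1182 and 2491 counts in WT and 450 and 187 in Tex11PM/Y. Germ cell markers were high as a sum in every library: the 12 genes of that list summed to between 1018 and 1476 FPKM. Uchl1 alone held 505 and 642 FPKM in WT replicates 1 and 2 and 348 and 808 FPKM in libraries A and B. Not every gene was high: Cdh1 held 1.52 to 7.94 FPKM and Nanos2 3.11 to 10.7 FPKM. Cdh1 and Nanos2 were named after their values were seen. Library A stood apart in other markers. The summed FPKM of 14 fibroblast genes was 41.4 there and 553 to 1733 in the other libraries, and that of 9 macrophage genes was 15.0 there and 326 to 817 elsewhere.

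The 10 Sertoli cell genes were present at low levels in every library. Together they took 675 counts in WT replicate 1, or 0.00354% of that library (exact Clopper-Pearson 95% interval from 0.00328% to 0.00382%). WT replicate 2 held 761 counts (0.00392%), library A 607 (0.00314%) and library B 502 (0.00254%). These intervals and the others given here cover counting error only, since reads without molecular identifiers are not independent molecules. Summed over the 10 genes, FPKM was 12.6 and 11.1 in WT and 9.99 and 7.15 in Tex11PM/Y. The sum of the 12 germ cell genes was 80.6 and 117 times as high in WT replicates 1 and 2, and 122 and 206.5 times as high in libraries A and B. Both WT sums lay above both Tex11PM/Y sums in FPKM, but without Clu the sums were 5.21, 9.27, 6.44 and 5.79 and WT replicate 1 was the lowest. In TPM, another length-scaled unit of the authors, the sums of all 10 genes were 31.35, 30.9, 30.7 and 18.9, with library B alone low. Clu carried 58.8% of the sum in WT replicate 1 and 16.7% in WT replicate 2, so the sums of these WT libraries were made up differently. The ratio of Tex11PM/Y to WT in summed FPKM was 0.721, and 0.845 without Clu.

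**Figure D1:**
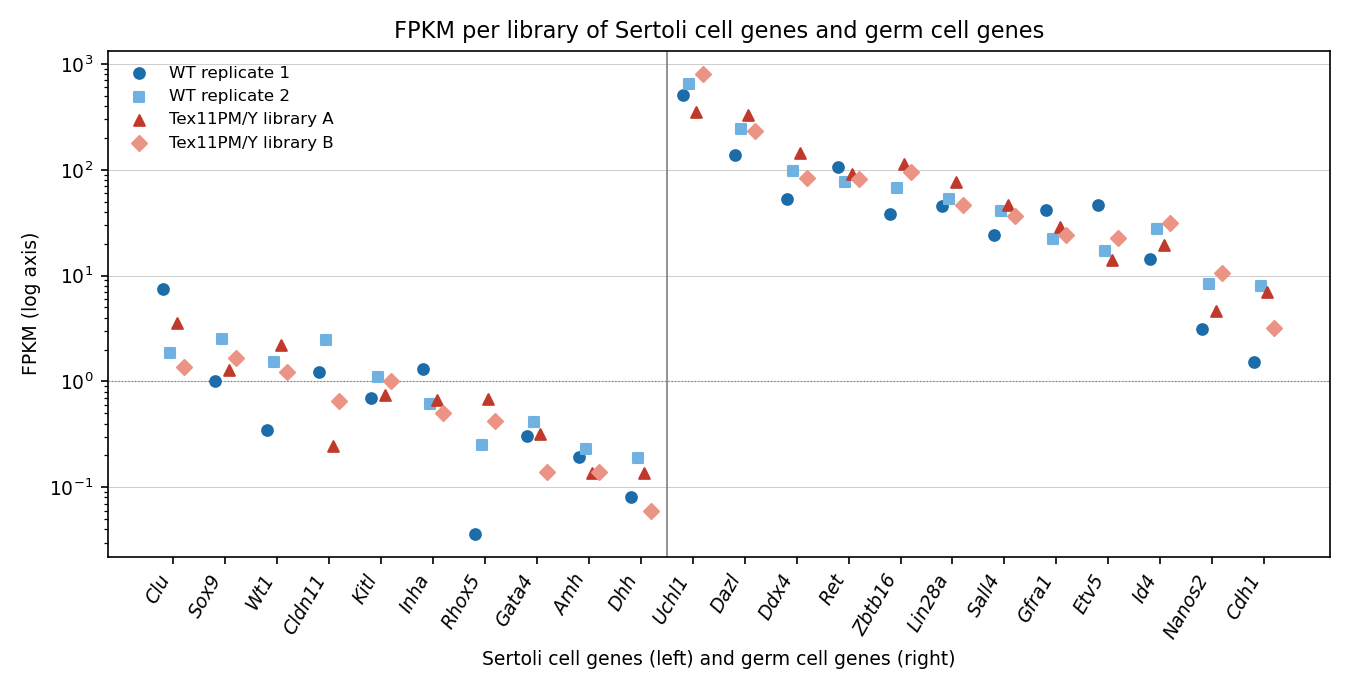
FPKM (log axis) of the 10 Sertoli cell genes, left of the vertical line, and of 12 germ cell genes, right of it, with 1 point per library and a dotted line at 1 FPKM. Sertoli cell genes lie between 0.0365 and 7.43 FPKM and germ cell genes between 1.52 and 808 FPKM.

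By FPKM, a scale that allows for gene length, the order of mean levels over the 4 libraries was Clu (3.55), Sox9 (1.61), Wt1 (1.33), Cldn11 (1.15), Kitl (0.885), Inha (0.771), Rhox5 (0.347), Gata4 (0.294), Amh (0.174) and Dhh (0.117). Of the 9 neighbouring pairs in this order, 9 had ranges over the libraries that overlapped, so no step of the order exceeded the spread. Only Clu, Sox9, Wt1 and Cldn11 of the 10 reached a mean of 1 FPKM, as did 13126 genes of the table. Clu was outranked by 9668 genes and Dhh by 20705.

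The detection limit was set at 3 counts, as many as a reading of 0 still allows, which is 0.149 to 0.169 CPM (counts scaled to a common library size) depending on the library. Of the 40 values of the Sertoli cell genes, 2 lay at or below 3 counts: Rhox5 at 1 and Dhh at 3, both in WT replicate 1. No value was 0. By another measure, under 1 CPM in at least 1 library, 6 of the 10 genes were near the limit: Amh, Dhh and Rhox5 in all libraries, Gata4 and Inha in library B, and Cldn11 in library A.

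The identity factors Sox9, Wt1 and Gata4 did not follow each other across the libraries. Sox9 (ENSMUSG00000000567.5, chromosome 11, 112782224 to 112787760 in mm10) encodes the transcription factor that starts Sertoli cell differentiation. Its counts were 98 (WT replicate 1), 245 (WT replicate 2), 123 (library A) and 159 (library B), or 5.51, 12.4, 6.19 and 7.92 CPM. WT replicate 2 was highest, the other libraries ran from 5.51 to 7.92 CPM, and the genotypes overlapped. Tex11PM/Y over WT was fitted at -0.34 log2 (standard error 0.60, edgeR adjusted p = 0.934), and it turned to 0.34 without WT replicate 2.

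Wt1 (ENSMUSG00000016458.14, chromosome 2, 105126529 to 105173616), a zinc-finger factor needed to keep Sertoli cell fate, held 25, 101, 141 and 72 counts in the same order of libraries, or 1.41, 5.11, 7.10 and 3.59 CPM. WT replicate 1 was low and library A high, while WT replicate 2 lay between the Tex11PM/Y libraries, so the genotypes overlapped. It was the 1 gene of the tested 7 that was fitted higher in Tex11PM/Y, with a log2 fold change of 0.71, a standard error of 0.80 and an edgeR adjusted p of 0.894. That value was 0.04 without WT replicate 1, 0.14 without library A and 1.90 without WT replicate 2. Its neighbour Wt1os, a gene on the other strand 18 bases away, held 0, 5, 1 and 8 counts.

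Gata4 (ENSMUSG00000021944.15, chromosome 14, 63198922 to 63245271), a GATA factor that activates gonadal genes such as Amh, held 25, 40, 29 and 16 counts, or 1.41, 2.02, 1.46 and 0.797 CPM. Its exact Poisson intervals ran from 0.909 to 2.07 CPM in WT replicate 1 and from 0.456 to 1.295 CPM in library B, the lowest. That of WT replicate 2, from 1.445 to 2.755 CPM, cleared library B alone, and the genotypes overlapped (fitted at -0.60 log2, standard error 0.70, edgeR adjusted p = 0.895). With a library left out it ran from -1.10 without library A to -0.28 without library B, and was -0.34 without WT replicate 2.

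Rhox5 (ENSMUSG00000095180.8) is an X-linked homeobox gene that responds to androgen in Sertoli cells. It held 1 and 5 counts in WT and 11 and 7 in Tex11PM/Y, or 0.0562, 0.253, 0.554 and 0.349 CPM. The genotypes did not overlap, but the interval of WT replicate 2, from 0.0821 to 0.590 CPM, overlapped those of both Tex11PM/Y libraries. Rhox5 did not pass the filter on low counts, so the edgeR fit gives no value for it. The deposited gene model spans 37804851 to 37808764 on the X chromosome with 633 counted bases. RefSeq places the start of the gene at 37754608 in the same build, 50243 bases upstream, and reads of an exon outside the deposited model were not counted for this gene.

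Of the 11 other genes fixed for the Rhox cluster, 4 were tested. They were fitted lower in Tex11PM/Y in 4 of 4 cases, with a median log2 fold change of -0.49 beside 0.01 over all genes tested, and 0 passed the threshold. Rhox13, expressed in germ cells, held 36.0, 25.7, 10.8 and 21.1 FPKM in the same order of libraries. Rhox1 held 8.41, 10.2, 5.19 and 11.1 FPKM and Rhox2a 10.3, 5.54, 3.59 and 6.97 FPKM. Each of them lay above Rhox5 in each library. Rhox8, another member used by Sertoli cells, held 0, 0, 1 and 0 counts. Members of this cluster resemble each other in sequence, so reads may be split among them and these values are uncertain.

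The hormone genes were low in both genotypes. Amh (ENSMUSG00000035262.5, chromosome 10, 80805243 to 80807648) encodes anti-Müllerian hormone, which makes the Müllerian duct regress in male embryos and stays high in immature Sertoli cells. It held 10 and 10 counts in WT and 7 and 5 in Tex11PM/Y, or 0.562, 0.506, 0.353 and 0.249 CPM. The WT libraries were the higher pair, but the interval of each library overlapped that of every other, and the gene did not pass the filter. Sf3a2, a splicing factor gene that ends 318 bases before Amh on the same strand, held 1495 to 2840 counts.

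Inha (ENSMUSG00000032968.4, chromosome 1, 75507077 to 75510366), the alpha subunit of inhibin, which restrains FSH release, held 49, 25, 30 and 18 counts, or 2.75, 1.26, 1.51 and 0.897 CPM. WT replicate 1 was high and the other WT library lay between the Tex11PM/Y libraries. Its log2 fold change was -0.73 (standard error 0.74, edgeR adjusted p = 0.887). It was -0.09 without WT replicate 1, -1.21 without WT replicate 2 and -1.15 without library A.

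Inhbb, a beta subunit that pairs with INHA to form inhibin B, held 39.2, 7.33, 1.61 and 9.07 CPM. Inhba, the other beta subunit, held 32.1, 50.7, 3.83 and 44.2 CPM in the same order. Both were lowest in library A, where fibroblast genes were low too; the part of other cells in these values was not tested. Both were named after their values were seen.

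The ligands Dhh and Kitl showed no separation of the genotypes. Dhh (ENSMUSG00000023000.5, chromosome 15, 98891152 to 98898540), the hedgehog ligand of Sertoli cells, held 3, 10, 12 and 4 counts, or 0.169, 0.506, 0.604 and 0.199 CPM. A WT and a Tex11PM/Y library were low and the others high, and Dhh did not pass the filter. The antisense gene Gm49442 overlaps its exons, held at most 1 count in any library, and cannot be told apart from Dhh without strand.

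Kitl (ENSMUSG00000019966.18, chromosome 10, 100015630 to 100100416), the KIT ligand that drives spermatogonial differentiation, held 94, 136, 87 and 135 counts, or 5.28, 6.88, 4.38 and 6.73 CPM. It varied least of the 10 genes, by 1.57-fold between the highest and the lowest library. Its log2 fold change was -0.13 (standard error 0.59, edgeR adjusted p = 0.977), 0.15 without library A and 0.06 without WT replicate 2. Levels of its receptor gene Kit, named after its values were seen, were 31.9, 29.2, 28.6 and 28.6 CPM, a spread smaller than that of Kitl.

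Clu (ENSMUSG00000022037.15, chromosome 14, 65968483 to 65981547) encodes clusterin, a secreted chaperone abundant in Sertoli cell fluid. It held 314 and 80 counts in WT and 155 and 56 in Tex11PM/Y, or 17.6, 4.05, 7.81 and 2.79 CPM. Each genotype had a high and a low library, apart by 4.36-fold in WT and by 2.80-fold in Tex11PM/Y, against 2.05-fold between the genotype means. The exact Poisson interval of library A, from 6.62 to 9.14 CPM, overlapped no other library's. The log2 fold change was -1.03 (standard error 0.84, edgeR adjusted p = 0.884); it turned to 0.36 without WT replicate 1 and was -1.95 without library A.

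Cldn11 (ENSMUSG00000037625.7, chromosome 3, 31149920 to 31164324) had the largest fitted difference of the 7 tested genes. It encodes claudin 11, the strand-forming protein of the tight junctions between Sertoli cells. It held 56 and 109 counts in WT and 12 and 30 in Tex11PM/Y, or 3.15, 5.51, 0.604 and 1.495 CPM. Both WT libraries lay above both Tex11PM/Y libraries. The lowest WT interval, from 2.38 to 4.09 CPM, did not reach the highest Tex11PM/Y interval, from 1.01 to 2.13 CPM. The WT mean was 4.33 ± 1.67 CPM and the Tex11PM/Y mean 1.05 ± 0.63 CPM (SD, n = 2 per genotype). The log2 fold change was -2.04 (standard error 0.77, unadjusted p = 0.0325), and adjustment over all genes left it far from the threshold (edgeR adjusted p = 0.884). Values with a library left out ran from -2.87 without library B to -1.53 without library A, and the adjusted p was 0.166 without library B. With limma it was -0.95 on log2(FPKM + 1), a scale that understates changes of low genes, and -1.36 on log2(TPM + 1). Library A held the least Cldn11 and also the least of the fibroblast and macrophage lists. Library B, also below both WT libraries in Cldn11, was not low in these lists. It held 741 FPKM of the fibroblast list, beside 1733 and 553 in WT. Of the macrophage list it held 817 FPKM, beside 380 and 326 in WT. The part of such cells in the Cldn11 difference was not tested.

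The sequence just upstream of Cldn11 is shown because no other tested gene of the 10 was apart between the genotypes. The 250 bases before its start, from RefSeq (GRCm38.p6, plus strand, chr3:31149670-31149919), are printed 5′ to 3′ with matches to the CCAAT box in capitals, here on the reverse strand as ATTGG.
Cldn11 upstream: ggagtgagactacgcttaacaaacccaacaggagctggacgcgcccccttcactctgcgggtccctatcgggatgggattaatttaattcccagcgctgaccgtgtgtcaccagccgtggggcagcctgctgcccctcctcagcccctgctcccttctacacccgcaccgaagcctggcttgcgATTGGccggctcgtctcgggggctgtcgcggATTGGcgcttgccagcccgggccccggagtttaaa
The window held 2 CCAAT boxes, and 33.9% of 32851 RefSeq promoter windows of that length held at least 1 on either strand. Other motifs were searched on both strands in the same way, and 0 matches were found for each in this window. The GC box, spelled GGGCGG, was found in 32.7% of all windows. The TATA box, spelled TATAAA, was found in 12.4% of them. For the core of SOX sites the search was for AACAAT, present in 9.42% of windows. For GATA factors it was AGATAA, present in 9.99%. For the steroidogenic factor SF1 it was AAGGTCA, present in 4.08%. Matches describe these letters only. RefSeq windows were at hand for 5 of the 10 genes.

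**Figure D2:**
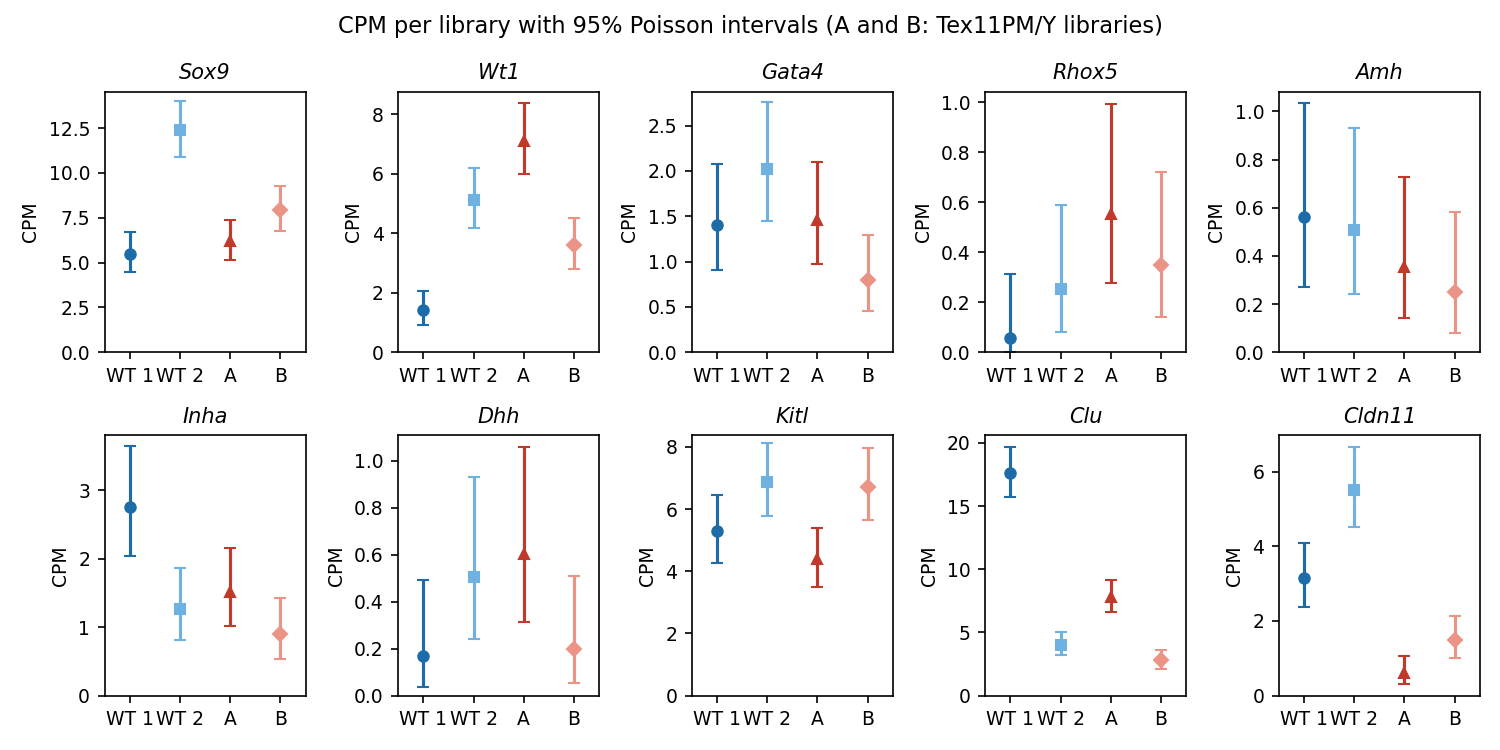
CPM of each of the 10 genes in the 4 libraries (A and B are Tex11PM/Y), with exact 95% Poisson intervals as bars, each panel on its own axis from 0. Cldn11 is the panel in which both WT intervals lie clear of both Tex11PM/Y intervals, while Clu is high in 1 library of each genotype.

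The genotype comparison asked whether SSCs labelled Tex11PM/Y differ from WT SSCs, and no Sertoli cell gene passed its test. The filter on low counts kept 7 of the 10 genes, and edgeR's quasi-likelihood test called 0 of them at an adjusted p under 0.05. Over all 17262 genes tested it called 0 as well, a background of 0%. Tex11 itself was fitted at -2.59 log2 (standard error 0.54, edgeR adjusted p = 0.884) and was not called either. A lack of calls is therefore not evidence that the genes are equal. Before adjustment, p was under 0.05 for 1 of the 7 genes, Cldn11, and for 2.7% of all genes tested (1.71% lower and 0.991% higher in Tex11PM/Y). DESeq2 called 0 of the 10 genes, beside 0.00303% of the genes it tested, and limma on log2(FPKM + 1) called 0. The 6 tested genes other than Wt1 were fitted lower, and the median of the 7 was -0.60 log2 beside 0.01 over all genes tested. Some marker lists of other cells were fitted lower too: 13 of 13 tested fibroblast genes, with a median of -1.37, and 6 of 7 peritubular myoid genes, with a median of -1.79. Other lists were mixed. Macrophage genes were 3 higher and 6 lower (median -0.3), and endothelial genes 3 higher and 2 lower (0.04). Leydig genes were 1 higher and 1 lower (0.1), and rete and duct genes 1 higher and 2 lower (-1.33). The 1 tested granulosa gene was lower (-1.18). The part of such cells in the values of the Sertoli cell genes was not tested.

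Groups were apart in CPM for 3 of the 10 genes, Cldn11 and Amh lower and Rhox5 higher in Tex11PM/Y. Among the 7 tested genes that was 1, where 32.4% of all tested genes were apart. In 6 of the 7 the fold between libraries of the same genotype exceeded the fold between genotype means; 82.8% of all tested genes behaved that way. The first share lay below that of all tested genes and the second close to it.

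**Figure D3:**
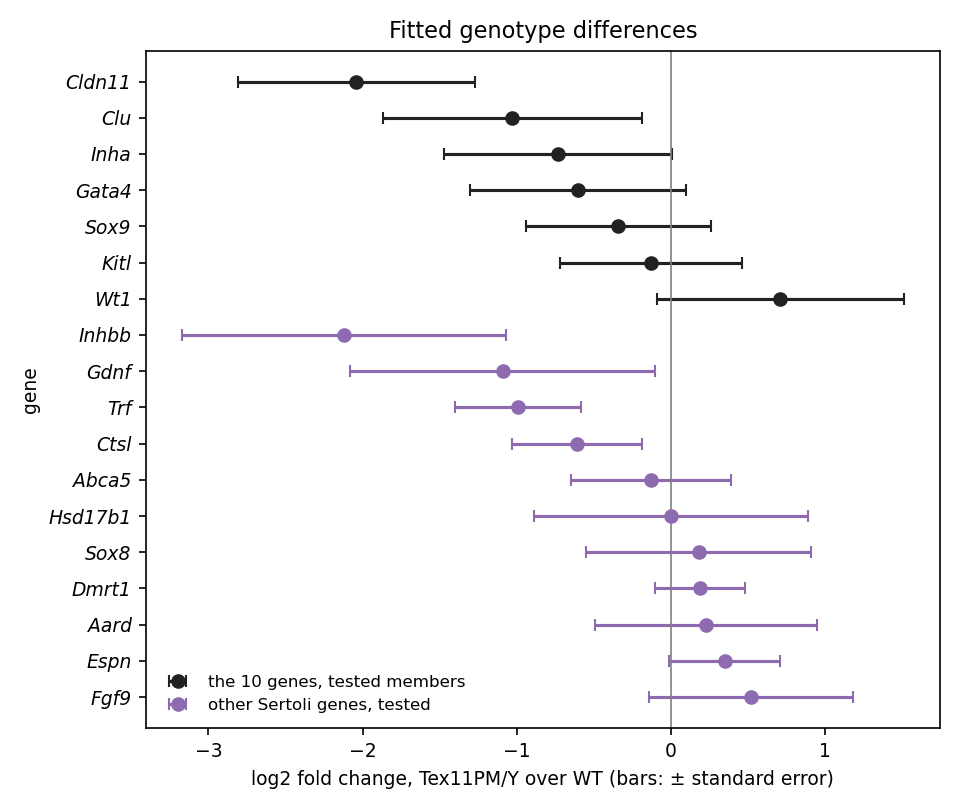
Fitted log2 fold change of Tex11PM/Y over WT with standard error bars, for the 7 tested genes of the 10 (black) and 11 tested genes of the list of other Sertoli genes (purple). Cldn11 lies lowest of the 7 at -2.04 and Wt1 highest at 0.71, and none of the 18 passed the threshold over all genes.

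Across libraries the 10 genes did not rise and fall as a set. WT replicate 2 held the highest CPM of 4 genes, WT replicate 1 of 3 and library A of 3. WT replicate 1 and library B each held the lowest of 4 genes, and library A of 2. Wt1, Rhox5 and Dhh were highest in library A and lowest in WT replicate 1. Clu, Inha and Amh were highest in WT replicate 1 and lowest in library B. The fibroblast list, by contrast, lay 3.04 log2 below its own mean in library A (a deviation of -3.04), where Wt1 stood at 0.92 above, Clu at 0.30 and Sox9 at -0.29. Of the 10 genes, Cldn11 came nearest to that drop, with a deviation of -1.59 in library A, and Kitl followed with -0.38. The germ cell list varied between -0.23 and 0.10.

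**Figure D4:**
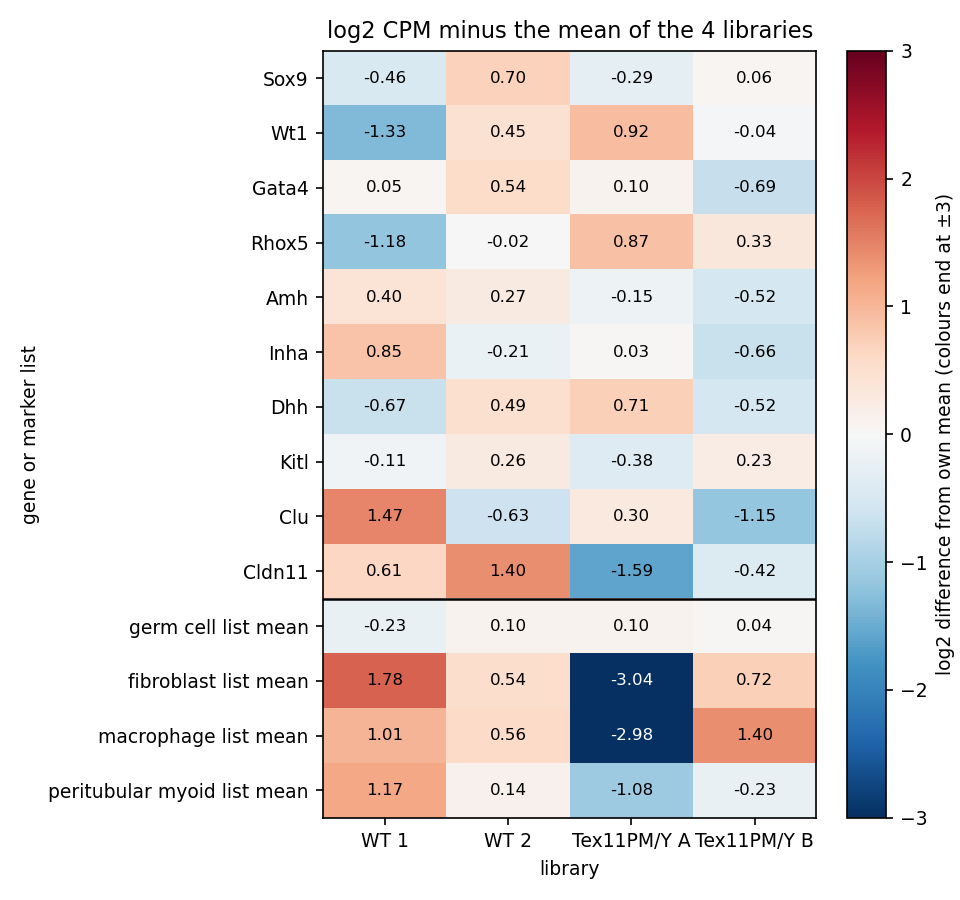
Differences of log2 CPM from the mean of the 4 libraries for the 10 genes, and the same for the mean of 4 marker lists, with the value in each cell. Library A is far below the mean for the fibroblast (-3.04) and macrophage (-2.98) lists, and among the 10 genes it is below -1 for Cldn11 alone (-1.59).

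By the distance of centred log2 CPM over the 4 libraries, a measure of likeness only, the genes most like Clu were Ptprz1, Flt4 and the pseudogene Rpl21-ps15, at distances of 0.161 to 0.246. Those most like Sox9 were Klhl23, Dleu7 and Vipas39, at 0.0608 to 0.107. Those most like Kitl were Map7d2, Zmat5 and Pdzd4, at 0.0162 to 0.048. The libraries behind each distance numbered 4, and the candidates were tested genes without Gm or Rik names.

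Further Sertoli cell genes ranged from the floor to high levels. Between these ends lay others, such as Sox8 and Abca5, with means of 1.02 and 2.48 FPKM over the 4 libraries. Both were named after their values were seen. Of a list of 22, 7 held 3 or fewer counts in every library, and of these Fshr, the FSH receptor that defines Sertoli cells in the testis, and the cystatin gene Cst9 held 0 in all 4. The other 5 were Cst12, Shbg, Rhox8, Mro and Ptgds. At the other end stood Dmrt1, which germ cells use as well, at 174, 214, 223 and 251 FPKM. The lysosomal protease gene Ctsl held 216, 168, 86.2 and 188 FPKM, and the transferrin gene Trf 13.3, 24.96, 8.32 and 12.2 FPKM. Espn, an actin-bundling protein gene, held 8.51, 9.04, 8.72 and 13.8 FPKM. Nr5a1, the steroidogenic factor that works with SOX9 on Amh, named after its values were seen, held 4, 6, 1 and 8 counts.

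Among these 22 genes 12 were tested, 0 passed the threshold, 7 were fitted higher and 5 lower, and the median log2 fold change was 0.09. Both Tex11PM/Y values of Trf lay below its WT values (fitted at -0.99 log2, standard error 0.41, edgeR adjusted p = 0.884). Gdnf, the growth factor by which Sertoli cells maintain SSCs, named after its values were seen, held 33, 50, 4 and 37 counts.

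Claudin 11 works at cell junctions, and other junction genes were read beside it, named for a mean of at least 5 FPKM. Of 12 such genes 11 were tested, 0 passed, 5 were fitted higher and 6 lower, with a median log2 fold change of -0.03. F11r, a junctional adhesion molecule, held 47.7, 52.3, 48.4 and 66.6 FPKM, and the scaffold gene Tjp1 35.8, 44.6, 74.3 and 43.0 FPKM. Occludin (Ocln) held 14.7, 24.8, 29.7 and 27.1 FPKM, and Marveld2, of tricellular junctions, 15.3, 11.4, 11.7 and 15.4 FPKM. Nectin2, an adhesion protein of junctions between Sertoli cells and spermatids, held 23.3, 8.11, 4.09 and 7.91 FPKM. Its log2 fold change was -1.52 (standard error 0.60, edgeR adjusted p = 0.884).

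Receptors and targets of the ligands were followed as well, and those named by the rule have a mean of at least 5 FPKM. Of 16 genes 15 were tested, 0 passed, 8 were fitted higher and 7 lower, and the median log2 fold change was 0.02. The hedgehog receptor and target Ptch1 held 3.63, 12.3, 16.6 and 20.8 FPKM, lower in WT (fitted at 1.13 log2, standard error 0.53, edgeR adjusted p = 0.884). Smo, the hedgehog signal transducer, held 16.1, 21.2, 12.4 and 22.2 FPKM, and the co-receptor Cdon 5.77, 5.74, 7.23 and 6.49 FPKM. Bmpr1a, a type I receptor that AMH can use, held 12.6, 19.7, 29.9 and 21.4 FPKM. The activin receptor Acvr2b held 11.2, 15.0, 25.3 and 21.0 FPKM, and Tgfbr3, the co-receptor of inhibin, 14.7, 7.37, 3.30 and 8.18 FPKM. Amhr2, the specific receptor of AMH, named after its values were seen, held 27, 30, 20 and 33 counts.

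Markers of other testis cells were read beside these values. Of 8 Leydig cell genes, 5 held 3 or fewer counts in each library: Hsd3b1, Hsd3b6, Insl3, Lhcgr and Hsd17b3. Star, on the same list and named after its values were seen, was not at that floor. It held 275, 176, 269 and 187 counts, or 2.49, 1.67, 2.48 and 1.83 FPKM, most of the sum of the list. The list summed to between 2.05 and 2.71 FPKM. Of 7 peritubular myoid genes 0 were at that floor, and together they held 3758 and 852 counts in WT and 367 and 780 in Tex11PM/Y. Endothelial genes summed to between 3.46 and 4.12 FPKM, and 3 granulosa cell genes, of the ovarian counterpart of Sertoli cells, to between 0.168 and 0.465 FPKM. Genes of rete and duct epithelium summed to 8.94, 20.5, 3.31 and 9.16 FPKM. The libraries thus held Sox9, Wt1, Clu, Kitl and Cldn11 transcripts at low levels beside Fshr and Cst9 at 0, and bulk RNA does not assign these transcripts to a cell type.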

How the data were processed

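Poly(A) RNA in 4 SSC libraries was sequenced after a kit not stated to keep strand, per the labels' protocols. Among tools, fastp, STAR, featureCounts, StringTie and DESeq2 are listed in the submitters' processing notes, with mm10 as the build. The annotation release was not given in the sources used here. Read counts of 55335 genes were deposited as whole numbers, not normalized. FPKM and TPM, per the file headers, were deposited for 37653 genes. Over the 40 values of the Sertoli cell genes, the authors' FPKM was 0.44 to 2.26 times that computed from their counts (median 0.816).

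Counts were fitted with edgeR 4.0.16 under R 4.3.3 (TMM scaling, the filterByExpr filter, robust quasi-likelihood F test, genotype as the only term; Benjamini-Hochberg over 17262 genes, threshold 0.05). The standard error is the size of the log2 fold change over the square root of F. CPM used TMM library sizes and log2 CPM a prior count of 2. The fit was tested on simulated data with much less spread between libraries than these data hold. The common biological coefficient of variation here was 43.4%. That test therefore does not show how large a difference the fit can call in these libraries. Counts of any 2 libraries differed beyond sampling noise (chi-square per degree of freedom 18.6 to 217). The closest pair crossed the genotypes: WT replicate 2 and library B, at 18.6. Libraries of the same genotype stood at 94.8 in WT and 96.5 in Tex11PM/Y. No permutation of 2 libraries against 2 can reach the threshold.

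Tried as alternatives were no count filter, library size alone, DESeq2 1.42.0 and its size factors, limma 3.58.1 on log2(FPKM + 1), log2(FPKM + 0.1) and log2(TPM + 1), and each library left out; the last was added for the summed FPKM after the data were seen. The members and lists were chosen with earlier results of these data known. Named were the 10 genes, list genes with a mean of at least 5 FPKM or past the threshold (at most 6 a list), markers with 3 or fewer counts, and for the 3 members of highest CPM the 3 nearest profiles among tested genes (no Gm or Rik names). Of the genes this rule or the lists hold, 2 are not reported here by name, though the counts over their lists include them.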

Additional observations from a re-analysis of the deposited data

How the results depend on the processing

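For the 7 tested Sertoli cell genes, 77 log2 fold changes were computed under alternatives and 0 passed the threshold; 72 kept their direction. The 5 that turned were Sox9 without WT replicate 2 (0.34), Clu without WT replicate 1 (0.36), and Kitl without WT replicate 2 (0.06), without library A (0.15) and with limma on log2(TPM + 1) (0.06). With a library left out, Sox9 ran from -0.83 to 0.34, Clu from -1.95 to 0.36 and Kitl from -0.52 to 0.15. Fits without a library leave a genotype with 1 library, assumed to vary like the other. The count of Sertoli cell genes called was 0 under every alternative run. Over all genes, DESeq2 called 1 gene, edgeR without a count filter 50, and left-out libraries gave 0 to 518, the latter without library B. The count of Sertoli cell genes at the detection limit was 2 by 3 or fewer counts, 6 by under 1 CPM and 0 by 0 counts alone. The ratio of summed FPKM stayed between 0.601 and 0.841 with a library left out and was 0.797 in TPM. No paired analysis was possible because both Tex11PM/Y columns carry the same replicate number, so the planned fit with a replicate block was not run. Rhox5, Amh and Dhh, with 12 or fewer counts in every library, did not pass the filter of the edgeR fit. The fits that held all 10 genes (DESeq2, no count filter, and those without either WT library or library B) called 0 of them.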
